A study of Mus musculus with 12 samples.

Results

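The combined action of carfilzomib and doxorubicin was examined as a 2 x 2 interaction in NIH/3T3, an established fibroblast line from mouse embryos. Its members are libraries, and all 12 of the 12 in the series enter it, because the contrast needs each of the 4 groups. Wild-type cells received DMSO as vehicle, carfilzomib at 200 nM (CFZ), doxorubicin at 5 µM (DOX) or both drugs at those doses (CFZ-DOX), each for 8 h, and polyadenylated RNA of 3 libraries per group was sequenced. The interaction is the log2 contrast CFZ-DOX − CFZ − DOX + DMSO. It equals the effect of carfilzomib in the presence of doxorubicin (CFZ-DOX against DOX) minus its effect in the absence of doxorubicin (CFZ against DMSO). It is 0 for a gene whose level with both drugs is the product of the 2 single-drug folds, negative below that product and positive above it. All groups come from 1 cell line. The labels do not say whether a group's 3 libraries came from separate cultures, so the spread behind the p-values may be technical.

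Carfilzomib binds covalently to the chymotrypsin-like subunit of the proteasome, the protease complex that degrades ubiquitin-tagged proteins. Cells whose proteasome is blocked are known to raise new proteasome subunits through the transcription factor NRF1 (Nfe2l1), chaperones through HSF1, antioxidant genes through NRF2 (Nfe2l2), and targets of p53, a protein that the proteasome normally removes. Doxorubicin intercalates into DNA, traps topoisomerase II on it, displaces histones and impedes transcription, and it too is known to activate p53.

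Total counts per library were 28278879 (CFZ-DOX 3) to 42033993 (DOX 1), and 16648 genes were tested. Replicates differed by more than sampling noise in every group, with a chi-square per degree of freedom of 12.37 to 28.76 between replicates of DMSO or CFZ and of 45.14 to 107.5 between those of DOX or CFZ-DOX. The most different replicates were DOX 1 and DOX 3 (104) and CFZ-DOX 1 and CFZ-DOX 3 (107.5). Fibroblast markers summed to 12712 to 51617 CPM (counts scaled to a common library total) of the plain library total. On that plain scale, epithelial markers reached at most 198 CPM, and endothelial, leukocyte, neural, skeletal muscle and hepatocyte markers at most 45.1. The CPM of single genes given below are instead normalised with the trimmed mean of M values (TMM), so these sums are not on their scale. The 76 cytosolic ribosomal protein genes took 3.93 to 4.27% of counts with DMSO, 3.86 to 4.34% with CFZ, 6.63 to 7.19% with DOX and 9.88 to 10.5% with CFZ-DOX. CPM are relative to the counts of a library, so a change in total RNA per cell and a loss of cells cannot be told apart in them.

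With both drugs, most members of the proteasome core, proteasome cap, heat shock, NRF2 target and p53 target lists were called below the product of the single effects. Of the integrated stress response, unfolded protein response and NF-κB lists only a minority was. Lists of cell division, DNA replication, histone and ribosomal protein genes had more members called above the product than below it, though a minority of each. The interaction was called (edgeR quasi-likelihood F test, Benjamini-Hochberg adjusted p under 0.05) in 3270 of 16648 genes, 19.6%. It was higher in 1408 (8.46%) and lower in 1862 (11.2%), and by at least 2-fold in 953 (5.72%) and 1038 (6.23%). Among genes called lower, the CFZ-DOX mean was below the means of both single drugs in 1448 of 1862, between them in 365 and above both in 49. Among genes called higher, it was above both in 969 of 1408, between them in 368 and below both in 71. The median observed level was 0.48 of the product for genes called lower and 2.36 times the product for genes called higher. On linear CPM, where additive rather than multiplied effects give 0, the contrast kept its sign in 1839 of the 1862 and 1390 of the 1408. The 3 CFZ-DOX libraries lay below all 6 single-drug libraries in 841 of the genes called lower and above all 6 in 483 of those called higher, where 11.2% and 11.4% of all tested genes did. Of the called genes 43.1% were higher, but 62.4% were higher under upper-quartile scaling and 4.57% under scaling to the ribosomal protein genes. These scalings moved the median contrast of all genes by 0.17 and −0.69, and scaling to library size moved it by −0.14. A call with the same sign under scaling by TMM, library size, upper quartile, DESeq2-type size factors and ribosomal protein genes (5 scalings) was made in 248 genes (1.49%) in the higher and 1095 (6.58%) in the lower direction. Leaving out CFZ-DOX 3 gave 2172 higher and 2726 lower calls, and leaving out CFZ 3, DMSO 2 or DMSO 3 gave 792, 833 and 899 higher calls.

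**Figure D1:**
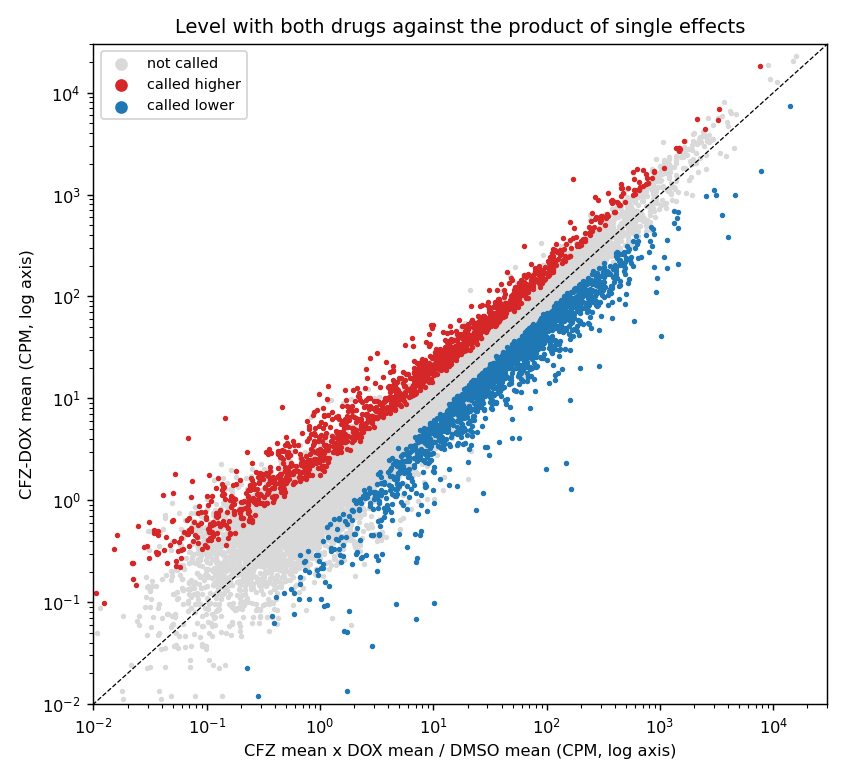
Mean level of each tested gene with both drugs (CPM, log axis) against the product of the single effects, the CFZ mean times the DOX mean over the DMSO mean (CPM, log axis); red and blue points are genes with an interaction called higher (1408) or lower (1862), grey points were not called, and the dashed line marks equality. Called genes lie on both sides of the line over the whole range of levels, and Hmox1, at 4.08% of the product, is among the genes farthest below it.

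Seen as an effect of carfilzomib, the interaction is the difference between 2 comparisons that share no library. Without doxorubicin, carfilzomib raised 982 genes by at least 2-fold (5.9% of those tested). In the presence of doxorubicin, 184 of these 982 (18.7%) were called higher and 36 were called lower, where 10.3% of all tested genes were called higher and 12% lower. Their median effect was log2 1.47 without and 0.27 with doxorubicin. An interaction called lower was found in 549 of the 982, beside 11.2% of all tested genes. The 982 were chosen by their rise from DMSO to CFZ, and the interaction subtracts that same difference. The choice alone therefore favours a smaller median with doxorubicin and calls below the product, and its part was not separated. In the presence of doxorubicin 630 genes (3.78%) rose at least 2-fold, and the 87 that did so in both settings were 8.86% of the 982 and 13.8% of the 630. Genes that carfilzomib lowered gave like counts: 1083 fell by at least 2-fold without doxorubicin (6.51%), and 215 of them (19.9%) were called lower with it. Their median was −1.42 without and −0.24 with doxorubicin, under the same limit from the choice of genes. Across all 16648 genes the 2 carfilzomib effects had a Pearson r of 0.159, and the 2 doxorubicin effects (DOX against DMSO and CFZ-DOX against CFZ, again without a shared library) had an r of 0.888. Genes of 1 library are not independent, so both r are descriptions. Under scaling to the ribosomal protein genes the carfilzomib effect in the presence of doxorubicin moved by −0.78 over all genes. It was then called higher in 126 and lower in 8784 of all 16648 genes. Of the 717 genes raised 2-fold under that scaling, 32 remained called higher with doxorubicin.

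**Figure D2:**
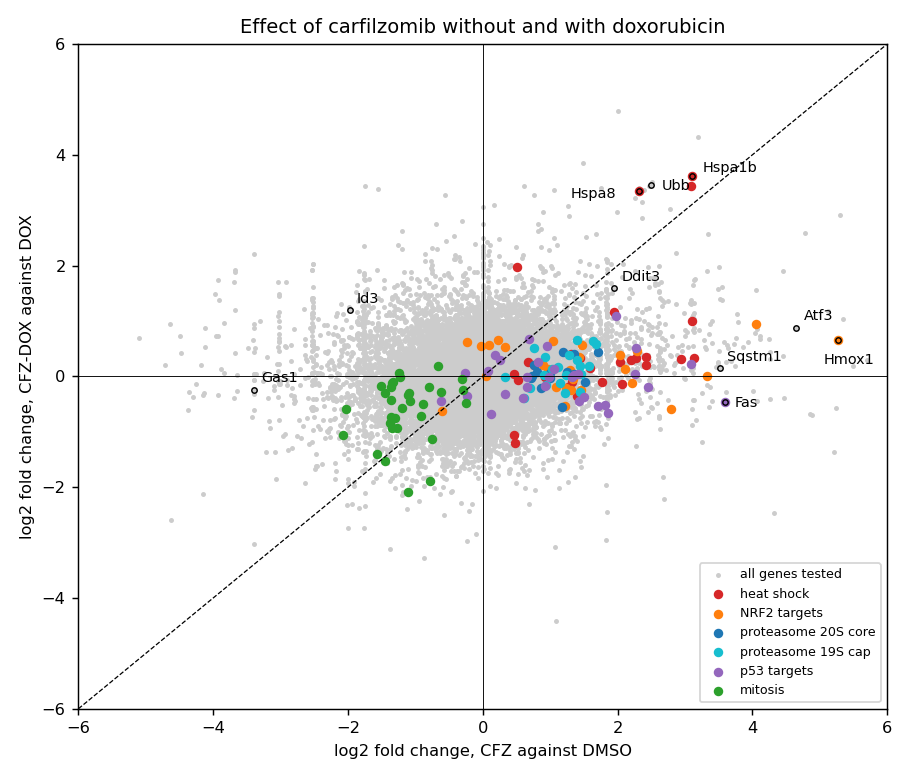
Log2 fold change with carfilzomib in the presence of doxorubicin (CFZ-DOX against DOX, vertical axis) against that in its absence (CFZ against DMSO, horizontal axis) for each tested gene, with 6 gene lists in colour and the genes named on the plot ringed; the dashed line marks equal effects, an interaction of 0. Proteasome, NRF2 target and p53 target genes spread to the right along the horizontal axis with values near 0 on the vertical axis, while Ubb, Hspa1b and Hspa8 lie above log2 3 on it.

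The gene lists differed in which side of the product they lay on. Of the 14 genes of the proteasome core 13 had an interaction called lower, of 21 genes of its regulatory cap 19, of 28 heat shock genes 19, of 27 NRF2 targets 18 and of 31 p53 targets 20, where 11.2% of all tested genes were called lower. Members called higher in these 5 lists numbered 0, 0, 1, 0 and 0 by edgeR, 0, 0, 1, 1 and 0 at an unadjusted p under 0.05 and 0, 0, 1, 2 and 0 by DESeq2. The share called higher was 12 of 32 for mitosis, 11 of 39 for DNA replication, 8 of 39 for replication-dependent histones and 19 of 76 for ribosomal proteins, where 8.46% of all tested genes were called higher. Under all 5 scalings, 9, 16, 17, 16 and 17 members of the 5 stress lists were called lower, in the same order, where 6.58% of all tested genes were. In the 4 growth lists 0, 1, 4 and 1 members were called higher under all 5, where 1.49% of all tested genes were. Scaling to the ribosomal protein genes holds these genes near 0 by construction, so their count of 1 is no free test.

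**Figure D3:**
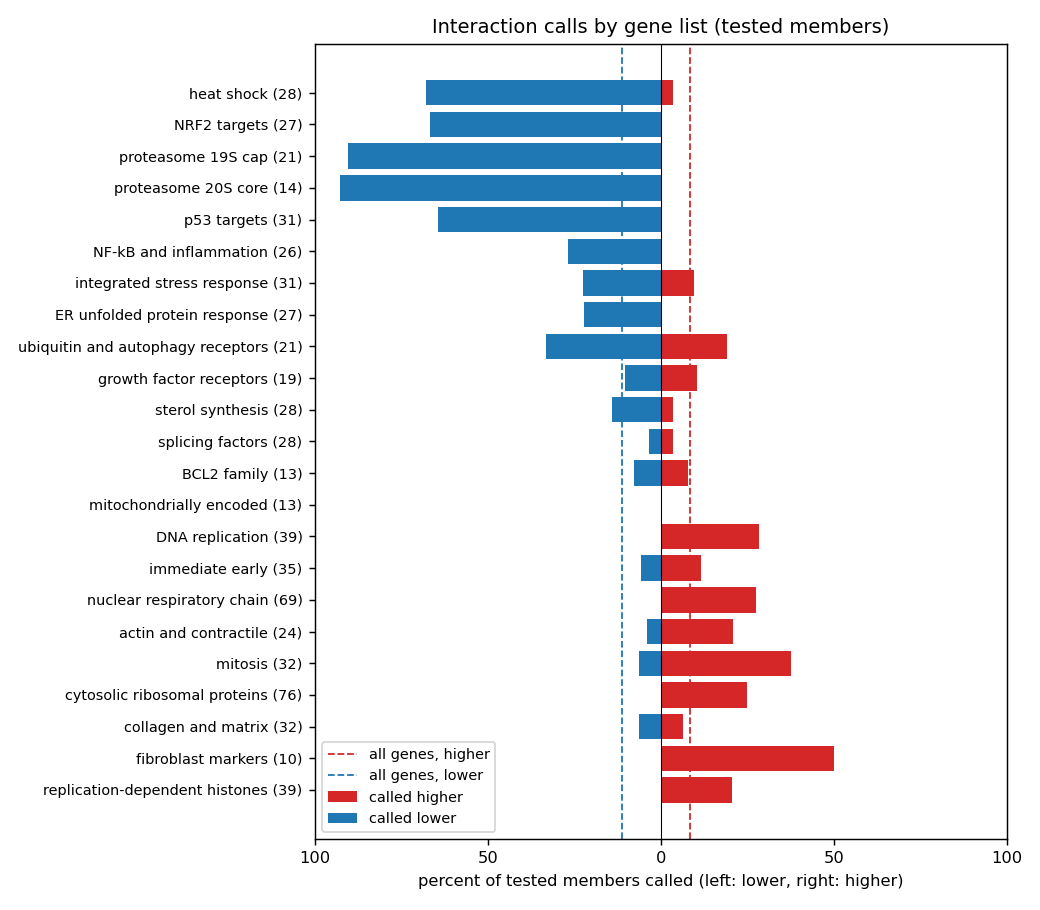
Percent of the tested members of each gene list (number tested in brackets) with an interaction called lower (blue, to the left) or higher (red, to the right); dashed lines mark the percent over all tested genes, 11.2% lower and 8.46% higher. Proteasome, heat shock, NRF2 and p53 lists lie far to the left, and fibroblast markers, mitosis, DNA replication and respiratory chain genes to the right.

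Genes of the proteasome itself rose with carfilzomib alone, and few of them rose with it in the presence of doxorubicin. All 14 genes of the 20S core, the barrel that holds the proteolytic sites, rose without doxorubicin (median log2 1.09), where 14.4% of all tested genes were called higher and 14.4% lower. In its presence 3 rose and 1 fell (median 0.05), where 10.3% of all tested genes rose and 12% fell. Under scaling to the ribosomal protein genes 0 rose and 14 fell (median −0.72), where 126 of all 16648 genes rose and 8784 fell. Of 21 genes of the 19S cap, which binds and unfolds ubiquitinated proteins, 20 rose without doxorubicin (median 1.22) and 4 rose with it (median 0.13), or 0 rose and 18 fell under that scaling (median −0.63). The median interaction was −0.99 for the core and −1.01 for the cap, beside 0.04 over all tested genes.

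The core subunit gene Psma5 (ENSMUSG00000068749, GRCm39 chromosome 3, 108164242 to 108187290, plus strand) had 89.7, 102 and 96.6 CPM with DMSO, 221, 214 and 213 with CFZ, 123, 129.9 and 108 with DOX and 82.7, 88.1 and 74.2 with CFZ-DOX. Its CFZ-DOX libraries were the lowest of all 12 and its CFZ libraries the highest. The level with both drugs was 30.2% of the product of 270.5 CPM (log2 −1.73, SE 0.17, adjusted p = 3.88e-05). Carfilzomib thus raised Psma5 in the absence of doxorubicin (log2 1.17, adjusted p = 1.12e-05) and lowered it in its presence (−0.56, adjusted p = 0.00585). Psmb2, another core subunit, had 274 to 279.7 CPM with CFZ and 95 to 140.4 with CFZ-DOX, against 93.9 to 100.2 with DMSO and 102 to 146 with DOX (log2 −1.63, SE 0.23, adjusted p = 0.000425). Psma1 and Psmb3 followed with contrasts of −1.30 (SE 0.21, adjusted p = 0.000937) and −1.28 (SE 0.18, adjusted p = 0.000395). Psmb5 encodes the subunit that carfilzomib binds. It had 37.1, 40.7 and 38.2 CPM with DMSO, 63.3, 66 and 63.3 with CFZ, 55.8, 57 and 39.7 with DOX and 50.4, 59.6 and 42.9 with CFZ-DOX, the smallest contrast named here (log2 −0.73, SE 0.22, adjusted p = 0.0312). That call was lost on leaving out any 1 library other than CFZ-DOX 2, CFZ-DOX 3 or DOX 3, with adjusted p of 0.0537 to 0.0745.

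Of the cap genes, Psmd11, a scaffold subunit of the lid, had 169, 191 and 178 CPM with DMSO, 469, 481 and 506 with CFZ, 107, 129 and 88.4 with DOX and 83, 108 and 76.7 with CFZ-DOX. Only the CFZ libraries stood above the DMSO libraries, and DOX and CFZ-DOX libraries overlapped below them (log2 −1.72, SE 0.23, adjusted p = 0.00028). Psmd6 (−1.53), Psmd1 (−1.42) and the ATPase gene Psmc6 (−1.40) had contrasts of like size, with adjusted p of 0.000226, 0.00146 and 0.000462. The ubiquitin receptor gene Psmd4 had an effect of carfilzomib of log2 1.63 without and 0.64 with doxorubicin (adjusted p = 2.81e-06 and 0.00643), the latter −0.11 and not called under ribosomal scaling (adjusted p = 0.485). Its level with both drugs was 50.3% of the product. Among 9 genes of assembly factors and other activators 1 was called lower, the activator PA200 gene Psme4 (log2 −1.58, SE 0.19, adjusted p = 0.000134), with 303 to 371 CPM with CFZ and 50.6 to 59.4 with CFZ-DOX. Nfe2l1, the gene of the transcription factor that drives subunit genes, had 350.5, 332 and 347 CPM with DMSO, 708, 579 and 592 with CFZ, 536, 401 and 409.9 with DOX and 431, 296 and 330.0 with CFZ-DOX (log2 −1.22, SE 0.24, adjusted p = 0.0035), so its own transcript was also below the product. Its rise with carfilzomib was called without doxorubicin (log2 0.87, adjusted p = 0.00175), and the value with doxorubicin was −0.35 (adjusted p = 0.151).

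Heat shock genes, the chaperones and co-chaperones that refold or hold damaged proteins, split into many that lost their response and a few that kept it. Of 28 tested, 24 rose with carfilzomib alone (median log2 1.68) and 6 rose in the presence of doxorubicin (median 0.26). Among all tested genes 14.4% and 10.3% rose. Under ribosomal scaling 3 of the 28 rose and 17 fell in the presence of doxorubicin, where 126 of all 16648 genes rose and 8784 fell. The median interaction of the list was −1.46. The promoters of 3 genes are given to show their response elements: Hspa1b, an HSP70 chaperone gene whose rise remained, Hsph1, an HSP110 nucleotide exchange factor gene whose rise did not, and Srxn1, an NRF2 target. Each sequence is 300 bases of RefSeq on GRCm38.p6, 250 before to 50 after the start, 5′ to 3′ on the gene's strand, at chr17:34959189-34959488 (minus), chr5:149636287-149636586 (minus) and chr2:152105274-152105573 (plus). Capitals mark matches to the heat shock element (GAANNTTC or TTCNNGAA) in the Hspa1b and Hsph1 promoters, and to the antioxidant response element (TGACNNNGC, on either strand) in that of Srxn1.
Hspa1b: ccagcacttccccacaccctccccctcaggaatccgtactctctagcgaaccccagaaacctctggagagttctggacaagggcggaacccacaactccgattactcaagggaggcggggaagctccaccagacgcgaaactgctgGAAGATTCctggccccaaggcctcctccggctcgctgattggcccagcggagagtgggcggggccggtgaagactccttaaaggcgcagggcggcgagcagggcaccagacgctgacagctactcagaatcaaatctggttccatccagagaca
Hsph1: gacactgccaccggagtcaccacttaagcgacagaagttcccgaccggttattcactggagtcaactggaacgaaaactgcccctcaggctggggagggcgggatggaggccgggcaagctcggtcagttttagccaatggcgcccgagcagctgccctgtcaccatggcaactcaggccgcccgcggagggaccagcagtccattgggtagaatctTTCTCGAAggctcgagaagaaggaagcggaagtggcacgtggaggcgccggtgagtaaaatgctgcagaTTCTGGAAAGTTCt
Srxn1: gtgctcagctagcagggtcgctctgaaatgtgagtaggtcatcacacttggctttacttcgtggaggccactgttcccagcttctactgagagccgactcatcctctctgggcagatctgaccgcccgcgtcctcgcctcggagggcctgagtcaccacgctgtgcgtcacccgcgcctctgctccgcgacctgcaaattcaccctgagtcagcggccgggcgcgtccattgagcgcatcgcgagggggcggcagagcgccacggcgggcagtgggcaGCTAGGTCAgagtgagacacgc
The Hspa1b window holds 1 match and that of Hsph1 3, of which the last pair overlaps, so a match was present both where the response was kept and where it was not. A heat shock element was found in 13 of the 22 heat shock genes with a promoter entry, in 14% of all 10909 tested genes with one and in 15.1% of 32851 windows. It was found in 17.8% of the 129 genes with an entry that carfilzomib raised 2-fold and that were called higher with doxorubicin too, and in 15.9% of the 509 that were not. The antioxidant response element was found in 9 of 21 NRF2 targets, in 16.6% of the tested genes and in 12.4% of windows. Matches are descriptions of letters, and the windows were not tested for binding.

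Hsph1 (ENSMUSG00000029657, GRCm39 chromosome 5, 149537752 to 149559841, minus strand) had 260.1, 303 and 306 CPM with DMSO, 2243, 2126 and 2334 with CFZ, 134, 175 and 144 with DOX and 155, 174 and 236 with CFZ-DOX. The CFZ libraries were above all others, and the CFZ-DOX libraries lay below every DMSO library, overlapping DOX. The level with both drugs was 16.2% of the product (log2 −2.63, SE 0.25, adjusted p = 2.97e-05). Cryab, a small heat shock protein gene, had 101, 129.5 and 106 CPM with DMSO, 776, 976 and 1187 with CFZ, 171, 203 and 125 with DOX and 203, 268 and 157 with CFZ-DOX, at 14.4% of the product (log2 −2.80, SE 0.32, adjusted p = 0.000108). Hsp90aa1, the inducible HSP90 gene, had 5455 to 6959.8 CPM with CFZ, 988 to 1228 with DMSO, 1230.2 to 1582 with DOX and 1298 to 1897 with CFZ-DOX (log2 −2.21, SE 0.28, adjusted p = 0.000179). Both genes had their CFZ libraries well above the remaining 9. The HSP40 co-chaperone gene Dnaja1 had a CFZ mean of 1184 ± 48.6 and a CFZ-DOX mean of 193 ± 15.8 CPM (SD, n = 3), and doxorubicin lowered it by log2 −0.42 without and −2.62 with carfilzomib. Dnajb1, another HSP40 gene, was at 23.4% of the product (log2 −2.09, SE 0.38, adjusted p = 0.00193) with an effect of carfilzomib of log2 3.10 without and 1.01 with doxorubicin.

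Hspa1b (ENSMUSG00000090877, GRCm39 chromosome 17, 35175412 to 35178214, minus strand, 1 exon) kept its rise in the presence of doxorubicin, unlike most of these genes. It had 20.4, 15.9 and 16.7 CPM with DMSO, 153, 145 and 157 with CFZ, 10.9, 6.82 and 10.8 with DOX and 76.4, 54.7 and 221 with CFZ-DOX. Every library with carfilzomib was above every library without it, in both the absence and the presence of doxorubicin, with effects of log2 3.10 (SE 0.41) and 3.63 (SE 0.43). Its interaction was not called (log2 0.52, SE 0.55, adjusted p = 0.531), and its sign changed to −0.32 without CFZ-DOX 3, the library with the highest level in that group. Hspa1a, the near-identical neighbouring copy with which it may share reads and which was added after its values were seen, had effects of 3.09 and 3.43, and its counts are uncertain for that reason. Hspa8, the constitutive HSP70 gene (ENSMUSG00000015656, GRCm39 chromosome 9, 40712280 to 40721383, plus strand), had 1164, 1395 and 1244 CPM with DMSO, 5855, 6069 and 7009 with CFZ, 360.4, 263 and 210.2 with DOX and 3213, 2804 and 2472 with CFZ-DOX. Doxorubicin alone lowered it below every DMSO library, and carfilzomib raised it from either starting level, by log2 2.32 without and 3.35 with doxorubicin. It was the 1 heat shock gene with an interaction called higher (log2 1.03, SE 0.29, adjusted p = 0.0211). That call was lost without CFZ 1, CFZ 2, DMSO 2, DMSO 3 or DOX 2, with adjusted p of 0.0528 to 0.0691.

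A polyubiquitin gene, Ubb (ENSMUSG00000019505, GRCm39 chromosome 11, 62441997 to 62444039, plus strand), whose product supplies ubiquitin as head-to-tail repeats, also kept its response. It had 345, 365 and 334 CPM with DMSO, 1931, 1842 and 2096 with CFZ, 142, 136 and 192 with DOX and 2030.0, 1561 and 1565 with CFZ-DOX. Doxorubicin alone was below every DMSO library, and of the CFZ-DOX libraries 1 lay in the range of CFZ and the other two below it, far above DMSO. The contrast was 0.96 (SE 0.24, adjusted p = 0.0135), 1.95 times the product of 882 CPM, and 0.23 under scaling to the ribosomal protein genes, where it was not called, nor was it under library-size scaling (adjusted p = 0.0507). Carfilzomib raised it by log2 2.49 without and 3.45 with doxorubicin (adjusted p = 5.62e-07 and 1.82e-07).

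Targets of NRF2 held the lowest contrast among the genes ranked for naming. Of 27 tested, 20 rose with carfilzomib alone (median log2 1.29), and 3 rose and 2 fell in the presence of doxorubicin (median 0.13). Among all tested genes 14.4% rose with carfilzomib alone, and 10.3% rose and 12% fell with doxorubicin present. The 3 are thus near the share of all genes. Under ribosomal scaling 0 of the 27 rose and 17 fell with doxorubicin present, where 126 of all 16648 genes rose and 8784 fell. The median interaction of the list was −1.28. The gene of haem oxygenase 1, Hmox1 (ENSMUSG00000005413, GRCm39 chromosome 8, 75820249 to 75827217, plus strand), had 35.2, 35.5 and 40.6 CPM with DMSO, 1359, 1414 and 1504 with CFZ, 18.9, 23 and 37.1 with DOX and 37.4, 26.8 and 59.7 with CFZ-DOX. The CFZ libraries were more than an order of magnitude above all others, and the CFZ-DOX libraries overlapped both DMSO and DOX. With both drugs Hmox1 stood at 41.3 ± 16.8 CPM (SD, n = 3), 4.08% of the product of 1012 (log2 −4.61, SE 0.39, adjusted p = 1.17e-05).

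Srxn1, the sulfiredoxin gene (ENSMUSG00000032802, GRCm39 chromosome 2, 151947436 to 151953296, plus strand), had 107, 98.9 and 94.4 CPM with DMSO, 798, 637 and 646 with CFZ, 83.7, 89.6 and 83.9 with DOX and 59.1, 57.4 and 54.9 with CFZ-DOX. Its CFZ-DOX libraries were the lowest of the 12, so that the effect of carfilzomib was a rise of log2 2.79 without doxorubicin and a change of −0.59 (adjusted p = 0.00643) with it (log2 −3.38, SE 0.19, adjusted p = 4.57e-07). Slc7a11, the cystine importer gene that feeds glutathione synthesis, had 38.9, 52.2 and 52 CPM with DMSO, 446, 482 and 512 with CFZ, 19.6, 21.4 and 17.6 with DOX and 17.5, 19.2 and 22.5 with CFZ-DOX (log2 −3.31, SE 0.22, adjusted p = 2.07e-06). It was lower with DOX than with DMSO and did not differ between DOX and CFZ-DOX beyond their spread (log2 0.02, adjusted p = 0.954). Osgin1, an oxidative stress-induced growth inhibitor gene, had a contrast of −3.11 (SE 0.48, adjusted p = 0.000675), with 86.6 to 94.1 CPM with CFZ and 1.70 to 5.67 with CFZ-DOX. Nfe2l2, the gene of NRF2 itself, had 105, 83.7 and 73.8 CPM with DMSO, 214, 155 and 151 with CFZ, 45.3, 50.7 and 56.1 with DOX and 37.4, 29 and 46.2 with CFZ-DOX, so that its CFZ-DOX level was 37.4% of the product (log2 −1.42, SE 0.27, adjusted p = 0.00281). Aox1, the aldehyde oxidase gene, was among the 12 lowest contrasts too (log2 −3.13, SE 0.45, adjusted p = 0.00043), although both drugs raised it singly, by log2 3.64 with CFZ and 1.54 with DOX.

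Sqstm1 (ENSMUSG00000015837, GRCm39 chromosome 11, 50090193 to 50101654, minus strand) encodes p62, the autophagy receptor that carries ubiquitinated cargo and also frees NRF2 from its inhibitor. It had 332, 316 and 323 CPM with DMSO, 3725, 3478 and 3911 with CFZ, 407, 360.5 and 265 with DOX and 409, 406 and 325 with CFZ-DOX. DMSO, DOX and CFZ-DOX overlapped, and only the CFZ libraries stood apart. The level with both drugs was 9.65% of the product (log2 −3.37, SE 0.25, adjusted p = 3.74e-06), and the effect of carfilzomib was log2 3.52 without and 0.14 with doxorubicin. Of 21 tested genes of ubiquitin and autophagy receptors, 7 were called lower and 4 higher, where 11.2% and 8.46% of all tested genes were. The receptor gene Tax1bp1 (log2 −1.5, SE 0.19, adjusted p = 0.000193) and the adaptor gene Tollip (log2 −1.45, SE 0.20, adjusted p = 0.000395) had their CFZ-DOX libraries below all others, at 124 to 161 and 32.6 to 42.9 CPM.

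The integrated stress response, in which phosphorylation of a translation factor raises ATF4 and its targets, gave a mixed picture. Of 31 tested genes 12 rose with carfilzomib alone and 8 in the presence of doxorubicin, and 7 interactions were called lower and 3 higher. Of all tested genes 14.4%, 10.3%, 11.2% and 8.46% were so called, in the same order, so the 3 are near the share of all genes. Atf3, a transcription factor gene induced by many stresses, had 5.51, 5.24 and 5.87 CPM with DMSO, 129, 130.5 and 158 with CFZ, 9.34, 7.58 and 17.3 with DOX and 16.7, 10.2 and 36.1 with CFZ-DOX. Its CFZ libraries were far above the rest, and with both drugs it was at 7.32% of the product (log2 −3.77, SE 0.53, adjusted p = 0.000383). Chac1, a glutathione-degrading enzyme gene, had 73.3 to 85.1 CPM with CFZ, 27.8 to 33.5 with DMSO, 2.45 to 5.77 with DOX and 1.70 to 3.60 with CFZ-DOX (log2 −1.68, SE 0.41, adjusted p = 0.0118). Ddit3, the gene of the transcription factor CHOP, had 33, 32.8 and 40.2 CPM with DMSO, 151, 134 and 124 with CFZ, 22.3, 22.3 and 30.4 with DOX and 54.3, 50.6 and 120.3 with CFZ-DOX, with effects of carfilzomib of log2 1.95 without and 1.59 with doxorubicin (adjusted p = 0.000113 and 0.00134). The effect with doxorubicin was 0.84 and not called under ribosomal scaling (adjusted p = 0.0718). Its interaction was not called (log2 −0.36, SE 0.37, adjusted p = 0.524), and was −0.88 without CFZ-DOX 3 and −0.15 without CFZ-DOX 2. Ppp1r15a, which encodes the phosphatase subunit GADD34 that ends this response and was added after its values were seen, rose by 2.87 and 2.23 in turn, with a contrast of −0.64 (adjusted p = 0.197) that was −1.04 without CFZ-DOX 3. Atf5, another transcription factor gene of this list, went in the opposite direction with 94.6 to 134 CPM with CFZ and 188 to 469 with CFZ-DOX (log2 1.42, SE 0.39, adjusted p = 0.0204, but 0.72 and not called under ribosomal scaling). Its call was lost without CFZ 3 (adjusted p = 0.0645) or CFZ-DOX 1 (0.051).

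Genes of the endoplasmic reticulum's unfolded protein response were called lower in 6 of 27 and higher in 0 by edgeR (2 at an unadjusted p under 0.05 and 2 by DESeq2). Over all tested genes edgeR called 11.2% lower and 8.46% higher. Hspa5, the gene of the lumenal HSP70 chaperone BiP (ENSMUSG00000026864, GRCm39 chromosome 2, 34661982 to 34667559, plus strand), had 1131, 1187 and 1188 CPM with DMSO, 4313, 4169 and 4112 with CFZ, 1579, 1388 and 889.7 with DOX and 1136, 1076 and 752 with CFZ-DOX. Only the CFZ libraries were apart, and with both drugs the level was 21.4% of the product (log2 −2.22, SE 0.30, adjusted p = 0.000313). Dnajb9 (log2 −1.45, SE 0.36, adjusted p = 0.0129), a co-chaperone gene, was raised by either drug alone, to 28.6 to 37.1 CPM with CFZ and 22.2 to 30.3 with DOX from 8.25 to 11.2 with DMSO. With both it had 17.6 to 43.6, overlapping both single drugs. The sensor gene Atf6 (−1.20, SE 0.20, adjusted p = 0.00125) and the co-chaperone gene Dnajc3 (−1.06, SE 0.21, adjusted p = 0.00335) were lower as well.

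Most targets of p53 rose with carfilzomib alone, and most lay below the product with both drugs. Of 31 tested, 23 rose with carfilzomib alone (median log2 0.99) and 14 rose and 6 fell with doxorubicin alone (median 0.31), where 36.1% of all tested genes were called higher and 31.3% lower. In the presence of doxorubicin, carfilzomib raised 2 and lowered 2 (median −0.01), where it raised 10.3% and lowered 12% of all tested genes. Under ribosomal scaling these counts were 0 and 23, beside 126 and 8784 of all 16648 genes. Carfilzomib alone raised 14.4% of all tested genes. An interaction called lower was found in 20 of the 31 (median −0.98), beside 11.2% of all tested genes. The levels under these calls fell into different patterns. Eda2r, a death-domain receptor gene of the TNF family (ENSMUSG00000034457, GRCm39 chromosome X, 96377446 to 96420822, minus strand), had 37.7, 36.6 and 37.3 CPM with DMSO, 127, 138 and 140.0 with CFZ, 119, 131 and 157 with DOX and 88.2, 77.5 and 90.1 with CFZ-DOX. Each drug alone raised it to about the same range, and the CFZ-DOX libraries were below every single-drug library (log2 −2.53, SE 0.18, adjusted p = 3.31e-06). Fas, the death receptor gene, had 3.85, 2.34 and 4.01 CPM with DMSO, 52, 29.5 and 41.5 with CFZ, 10.5, 10.5 and 18.7 with DOX and 7.90, 6.56 and 14.4 with CFZ-DOX, above DMSO with each drug, highest with CFZ, and at 6.03% of the product with both (log2 −4.05, SE 0.47, adjusted p = 0.000112). Pmaip1, which encodes the BH3-only protein NOXA, had 4.86, 3.93 and 4.81 CPM with DMSO, 21.3, 23.3 and 29.5 with CFZ, 46.2, 44.2 and 69.6 with DOX and 43.1, 34.3 and 62.1 with CFZ-DOX. DOX and CFZ-DOX overlapped above CFZ, and carfilzomib raised it by log2 2.45 without doxorubicin and gave −0.20 with it (adjusted p = 0.556). The contrast was called lower (log2 −2.64, SE 0.33, adjusted p = 0.000173).

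In other targets doxorubicin alone gave no called rise. Cdkn1a, the cyclin-dependent kinase inhibitor p21 gene, had 140.1, 122 and 132 CPM with DMSO, 404, 334 and 311 with CFZ, 151, 146 and 147 with DOX and 141, 121 and 196 with CFZ-DOX. The CFZ libraries were above all others, and CFZ-DOX overlapped both DMSO and DOX (log2 −1.36, SE 0.24, adjusted p = 0.00159). Mdm2, the gene of the ubiquitin ligase that degrades p53, had 531 to 613 CPM with CFZ, 108 to 128 with DMSO, 79.96 to 107 with DOX and 97.5 to 163 with CFZ-DOX (log2 −1.76, SE 0.26, adjusted p = 0.000503). Gadd45a, a growth arrest gene, was lowered by doxorubicin alone (log2 −1.08, adjusted p = 0.00429) and had 8.14 to 23 CPM with both drugs against 218 to 222 with CFZ (log2 −2.86, SE 0.41, adjusted p = 0.000441). The p53 transcript Trp53 had a contrast of −0.67 (adjusted p = 0.0192), a call lost without CFZ 3 (0.055) or DMSO 1 (0.0562).

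NF-κB targets and inflammatory genes were called lower in 7 of 26 and higher in 0 by edgeR (2 at an unadjusted p under 0.05 and 1 by DESeq2). Over all tested genes edgeR called 11.2% lower and 8.46% higher. Ptgs2, the inducible cyclooxygenase gene, had 183, 102 and 73.5 CPM with DMSO, 1079, 823 and 737 with CFZ, 587, 593 and 251 with DOX and 661, 784 and 436 with CFZ-DOX. All treated libraries were above DMSO, CFZ-DOX overlapped both single drugs, and the level with both drugs was 17.8% of the product (log2 −2.49, SE 0.50, adjusted p = 0.00393). Relb, an NF-κB subunit gene, had 37.5 to 52.5 CPM with CFZ and 15.1 to 24.7 with CFZ-DOX (log2 −1.81, SE 0.28, adjusted p = 0.000796). Tlr2, the Toll-like receptor gene, had 14, 9.99 and 10.8 CPM with DMSO, 33, 19.99 and 23.2 with CFZ, 8.69, 7.76 and 24.5 with DOX and 2.69, 1.58 and 5.74 with CFZ-DOX, with its CFZ-DOX libraries below all others (log2 −3.16, SE 0.63, adjusted p = 0.00371). The remaining genes among the 12 lowest contrasts belong to none of these lists. They were the calreticulin paralogue gene Calr3 (log2 −3.82, SE 0.26, adjusted p = 2.07e-06), the transcription factor gene Arnt2 (log2 −3.09, SE 0.46, adjusted p = 0.000531) and the proliferin gene Prl2c2 (log2 −3.36, SE 0.75, adjusted p = 0.0083), whose counts are uncertain because near-identical copies of it exist.

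**Figure D4:**
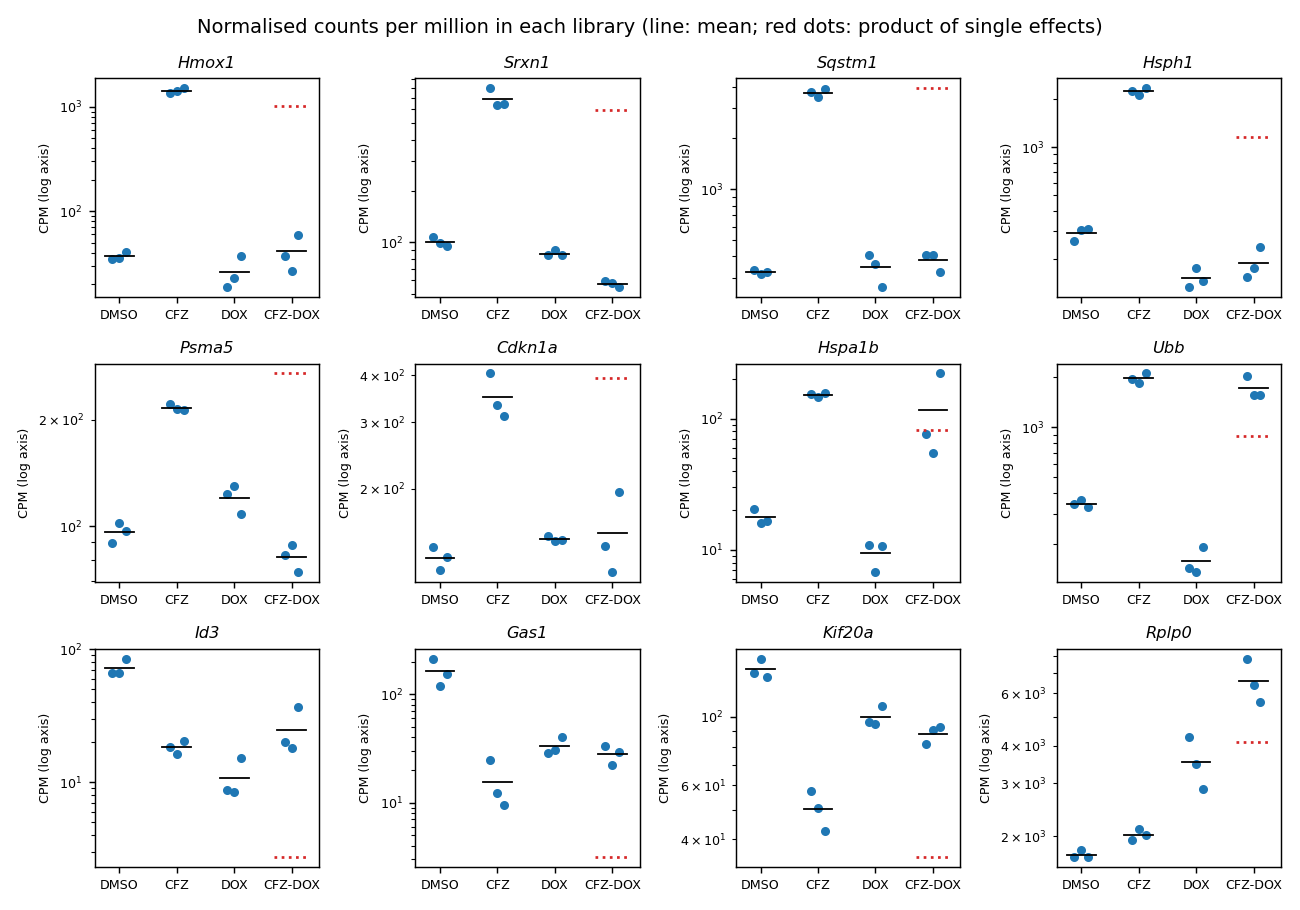
Normalised CPM (log axis, a separate range in each panel) of 12 genes in each of the 3 libraries per group (points), with the group mean (black line) and the product of the single effects at CFZ-DOX (red dots). Hmox1, Srxn1, Sqstm1, Hsph1, Psma5 and Cdkn1a lie far below the red dots, Id3, Gas1 and Kif20a far above them, and Hspa1b, Ubb and Rplp0 are nearer to them or reach above.

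Of the genes with the 12 highest contrasts, 11 had a called fall with carfilzomib alone, beside 14.4% of all tested genes, and Lars2 did not. The contrast subtracts the effect of carfilzomib alone, so ranking by it favours genes with such a fall. The highest contrast was that of Id3 (ENSMUSG00000007872, GRCm39 chromosome 4, 135870808 to 135873066, plus strand), an inhibitor of basic helix-loop-helix transcription factors that BMP signalling induces. It had 66.2, 66 and 85.1 CPM with DMSO, 18.5, 16.4 and 20.3 with CFZ, 8.77, 8.50 and 15.3 with DOX and 20.2, 18 and 36.7 with CFZ-DOX. Each drug alone brought every library below the DMSO libraries, and the combination overlapped CFZ. Its mean was 9.05 times the product of 2.76 CPM (log2 3.18, SE 0.38, adjusted p = 0.000138). Id2 had 28.9 to 35.6 CPM with DMSO, 5.87 to 6.55 with CFZ, 14.3 to 31.5 with DOX and 14.1 to 33.4 with CFZ-DOX (log2 2.57, SE 0.44, adjusted p = 0.00147). Id1, named after its values were seen because it belongs to the same family, had 34 to 49.5, 12.2 to 20.3, 20.9 to 27.2 and 41.7 to 60.5 CPM in that order (log2 2.44, SE 0.30, adjusted p = 0.000147). Smad6, an inhibitory SMAD gene of the same BMP pathway, was also among the 12 highest (log2 2.45, SE 0.44, adjusted p = 0.00191), with 0.974 to 1.79 CPM with CFZ and 5.51 to 12 with CFZ-DOX. Id1 was also called under all 5 scalings, which the ranking already required of Id3, Id2 and Smad6.

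Gas1 (ENSMUSG00000052957, GRCm39 chromosome 13, 60322219 to 60325179, minus strand), a growth arrest gene with a single annotated exon, had 213, 119 and 155 CPM with DMSO, 24.5, 12.4 and 9.53 with CFZ, 28.7, 30.4 and 40.5 with DOX and 33.2, 22.1 and 29.1 with CFZ-DOX. All 9 treated libraries lay below all DMSO libraries, and CFZ-DOX overlapped the single drugs rather than falling to the product of 3.16 CPM (log2 3.15, SE 0.43, adjusted p = 0.000319). Nab2, a corepressor gene of EGR transcription factors, had the same pattern with 111, 83 and 78.8 CPM with DMSO, 18.5, 13.7 and 11.6 with CFZ, 14.7, 16.7 and 16.9 with DOX and 15.2, 13.6 and 18.6 with CFZ-DOX (log2 2.61, SE 0.27, adjusted p = 6.03e-05). For Siglecg (2.86, adjusted p = 0.000177), Adamts14 (2.58, 0.00138), Ankle1 (2.52, 0.000103) and the long non-coding RNA Lockd (2.49, 8.12e-05) the CFZ libraries alone were the lowest, and CFZ-DOX overlapped DOX. Siglecg, a sialic acid-binding lectin gene, had 1.31 to 1.5 CPM with CFZ and 7.71 to 14.8 with CFZ-DOX. Ddah2, a dimethylarginine hydrolase gene, differed from these in that its CFZ-DOX libraries were the highest of all, at 28, 30.9 and 41.3 CPM against 11.6 to 15.6 with DMSO and 5.36 to 6.16 with CFZ (log2 2.57, SE 0.27, adjusted p = 6.03e-05). Spon2, the gene of the matrix protein spondin 2, was called over all libraries (log2 2.58, SE 0.71, adjusted p = 0.0265) but not without CFZ 2, CFZ 3, DMSO 1, DMSO 3, DOX 2 or DOX 3 (adjusted p 0.0511 to 0.0956).

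Lars2, which encodes the mitochondrial leucyl-tRNA synthetase (ENSMUSG00000035202, GRCm39 chromosome 9, 123195992 to 123291731, plus strand), rose furthest with both drugs and less with doxorubicin alone (log2 0.74, adjusted p = 0.0227). It had 102, 91.8 and 109.8 CPM with DMSO, 92.6, 136 and 74.3 with CFZ, 205, 198 and 106 with DOX and 1400.3, 1751 and 1070.1 with CFZ-DOX. The 3 CFZ-DOX libraries were above all others, at 8.31 times the product (log2 3.05, SE 0.38, adjusted p = 0.000177), and the gene took 0.102 to 0.149% of their counts. Part of this locus is known to resemble ribosomal RNA, so its counts may hold reads of another origin and are uncertain, and this was not tested.

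Most genes of cell division fell with carfilzomib alone, and fewer fell with it in the presence of doxorubicin. Of 32 mitotic genes 28 fell with carfilzomib alone (median log2 −1.24) and 12 fell with it when doxorubicin was present (median −0.47). Of all tested genes 14.4% and 12% fell. Under ribosomal scaling 31 of the 32 fell with carfilzomib when doxorubicin was present, where 8784 of all 16648 genes did. Doxorubicin alone lowered 23 of the 32 (31.3% of all tested genes). The interaction of these 32 was called higher in 12 and lower in 2, beside 8.46% and 11.2% of all tested genes. Its median was 0.61, but the median was −0.07 and 0 were called higher under scaling to the ribosomal protein genes. Without CFZ 3 or without DMSO 2, 7 were called higher. Kif20a, a kinesin gene of cytokinesis, had 139, 155 and 135 CPM with DMSO, 57.3, 50.6 and 42.7 with CFZ, 96.6, 94.9 and 109 with DOX and 81.7, 90.7 and 92.6 with CFZ-DOX. The CFZ libraries were the lowest and CFZ-DOX lay just below DOX, at 2.52 times the product (log2 1.33, SE 0.18, adjusted p = 0.000375). Ccna2, the cyclin A2 gene, had 156 to 189 CPM with DMSO, 38.5 to 43.4 with CFZ, 20.5 to 38.4 with DOX and 13.7 to 25.6 with both, 2.69 times the product (log2 1.43, SE 0.34, adjusted p = 0.00931). The proliferation marker Mki67 (1.31, SE 0.20, adjusted p = 0.000717) and the cyclin gene Ccnb2 (1.23, SE 0.27, adjusted p = 0.00593) were higher too. Kif20a, Mki67 and Ccnb2 were called under every scaling but the ribosomal one, and Ccna2 was not called under library-size scaling either. Plk1 (1.01, adjusted p = 0.044) lost its call without any 1 library other than CFZ-DOX 2 or DOX 3, with adjusted p of 0.0586 to 0.117.

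The 2 mitotic genes below the product were Top2a and Cdk1. Top2a encodes topoisomerase IIα, the main target of doxorubicin in dividing cells. It had 503, 614 and 498 CPM with DMSO, 332, 315 and 296 with CFZ, 197, 232 and 147 with DOX and 46.7, 59.3 and 49.9 with CFZ-DOX. Each treatment was below DMSO without overlap, and CFZ-DOX was the lowest, at 46.3% of the product (log2 −1.11, SE 0.24, adjusted p = 0.00613). Its sister gene Top2b had 149.8 to 168 CPM with DMSO, 135 to 154 with CFZ and 126 to 142 with DOX, which neither single drug changed by the test, and 66.2 to 68.5 with both (log2 −0.83, SE 0.16, adjusted p = 0.00317). Cdk1, the mitotic kinase gene, had 15.1 to 27.6 CPM with CFZ-DOX against 66.7 to 82.5 with CFZ and 72.9 to 97.1 with DOX (log2 −0.97, SE 0.28, adjusted p = 0.0259). The call of Cdk1 was lost without CFZ 1, CFZ-DOX 1, CFZ-DOX 2, DMSO 1, DMSO 3 or DOX 2, with adjusted p of 0.0548 to 0.0669.

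DNA replication genes gave 11 of 39 higher and 0 lower calls (2 lower at an unadjusted p under 0.05 and 0 by DESeq2), with a median of 0.25, which was −0.41 with 1 called higher under ribosomal scaling. Without CFZ 3 the count called higher was 6. Of all tested genes 8.46% were called higher and 11.2% lower. Tk1, the thymidine kinase gene, had 91.1, 100.2 and 95.9 CPM with DMSO, 28, 34 and 25.3 with CFZ, 73, 81.2 and 56.9 with DOX and 55.7, 69.4 and 41.5 with CFZ-DOX (log2 1.38, SE 0.26, adjusted p = 0.0027) and was called under all 5 scalings. Pold1, the catalytic subunit gene of DNA polymerase delta, had 29.99 to 51.6 CPM with DOX and 47.2 to 70.3 with CFZ-DOX (log2 1.37, SE 0.27, adjusted p = 0.00325). The cyclin gene Ccne1 (1.34) and the licensing factor gene Cdt1 (1.28) had adjusted p of 0.00396 and 0.00826. Of 39 replication-dependent histone genes, whose mature transcripts lack a poly(A) tail, 8 were called higher and 0 lower (0 at an unadjusted p under 0.05 or by DESeq2). Their median contrast was 1.25 (0.61 under ribosomal scaling), and 33 of them were already higher with DOX alone, where 36.1% of all tested genes were. Polyadenylated RNA samples such transcripts only in part. Without CFZ 2 or DMSO 2, 5 and 4 were called higher.

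Ribosomal protein genes took more of the counts with both drugs than either single effect gave. Of 76, edgeR called 0 with carfilzomib alone, 75 rose and 1 fell with doxorubicin alone, and all 76 rose with carfilzomib in the presence of doxorubicin (median log2 0.75). Among all tested genes 36.1% rose and 31.3% fell with doxorubicin alone, and 10.3% rose with carfilzomib in its presence. With carfilzomib alone 0 passed an unadjusted p under 0.05, and DESeq2 called 1 higher. The median interaction was 0.67, with 19 called higher, where 8.46% of all tested genes were. Under scaling to these same genes the median is near 0 by construction, so the change is relative to other genes. Rplp0, which encodes a protein of the ribosomal stalk, had 1709, 1791 and 1704 CPM with DMSO, 1939, 2114 and 2011 with CFZ, 4291, 3474 and 2872 with DOX and 7836, 6411 and 5610.3 with CFZ-DOX. All CFZ-DOX libraries were above all DOX libraries, and these above all others, yet the interaction was not called (log2 0.68, SE 0.26, adjusted p = 0.0823). Rpl13a had 48.2 to 58 CPM with DOX and 95.6 to 113 with CFZ-DOX, and was called (log2 0.84, SE 0.20, adjusted p = 0.01). The count of 19 rested on single libraries: it was 1 to 9 without any 1 library other than CFZ-DOX 3 or DOX 1, 72 without CFZ-DOX 3 and 56 without DOX 1. With the replicate number as a block it was 62.

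Nuclear genes of the respiratory chain resembled them. Of 69 tested, 19 were called higher and 0 lower (2 lower at an unadjusted p under 0.05 and 1 by DESeq2), where 8.46% and 11.2% of all tested genes were. The median was 0.48, and −0.19 under ribosomal scaling. With carfilzomib, 4 fell without doxorubicin, and 32 rose and 2 fell with it, or 0 rose and 37 fell under ribosomal scaling. Among all tested genes 14.4% fell without doxorubicin, and 10.3% rose and 12% fell with it. Under ribosomal scaling 126 of all 16648 genes rose and 8784 fell with it, so the 37 are near the share of all genes. Cox7b, a cytochrome oxidase subunit gene, had 55, 54.5 and 55.9 CPM with DMSO, 40.02, 40.8 and 34.7 with CFZ, 133, 114 and 89.9 with DOX and 212, 178 and 148 with CFZ-DOX. The CFZ-DOX libraries were the highest and the CFZ libraries the lowest (log2 1.19, SE 0.22, adjusted p = 0.00254). Uqcr11, of complex III, had the same order with 121 to 191 CPM with CFZ-DOX (log2 1.23, SE 0.25, adjusted p = 0.00417), and Cox7a2 had a contrast of 1.01 (SE 0.21, adjusted p = 0.00493). Leaving out 1 library gave 6 to 39 calls, the fewest without CFZ 3 and the most without CFZ-DOX 3. Of the 13 genes encoded on mitochondrial DNA, 0 were called in the interaction by edgeR or DESeq2 and 0 had an unadjusted p under 0.05.

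Fibroblast markers were called higher in 5 of 10, where 8.46% of all tested genes were. The count was 2 on leaving out any 1 library other than CFZ-DOX 3 or DOX 1, and 1 under ribosomal scaling. S100a4, a calcium-binding protein gene of mesenchymal cells, had 12.9, 9.83 and 10.9 CPM with DMSO, 4.73, 4.46 and 2.95 with CFZ, 31.7, 25.6 and 18.7 with DOX and 56, 46.3 and 26.7 with CFZ-DOX. It rose with doxorubicin, was lowest with CFZ, and with both drugs reached 4.70 times the product (log2 2.23, SE 0.38, adjusted p = 0.0014). Pdgfrb, a receptor gene for platelet-derived growth factor, had 160.2 to 231 CPM with DMSO and 33.6 to 55.5, 59.3 to 102 and 42.4 to 60.3 with CFZ, DOX and both (log2 1.5, SE 0.33, adjusted p = 0.00649, but 0.84 and not called under ribosomal scaling). Cnn1, the calponin gene of the contractile list, had 22.3 to 33.1 CPM with CFZ-DOX, above all other libraries (log2 1.46, SE 0.28, adjusted p = 0.00267).

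Drug efflux pumps of the P-glycoprotein type export both drugs. Abcb1a, at low levels, had 1.85, 1.86 and 2.23 CPM with DMSO, 5.45, 7.11 and 6.33 with CFZ, 4.06, 2.51 and 1.45 with DOX and 2.05, 1.5 and 0.747 with CFZ-DOX, so that the CFZ libraries were highest and CFZ-DOX overlapped DMSO and DOX (log2 −2.57, SE 0.51, adjusted p = 0.00344). Abcb1b, the paralogous gene, had 190.2 to 227 CPM with DMSO, 309.7 to 346 with CFZ, 243 to 332 with DOX and 207 to 319 with CFZ-DOX. Either drug alone raised it, and the combination did not exceed them (log2 −0.85, SE 0.25, adjusted p = 0.0258). That call was lost without CFZ 2, CFZ 3, DMSO 1, DMSO 3 or DOX 2, with adjusted p of 0.0512 to 0.0688.

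Called genes also differed in structure, which the contrast does not use. Genes called lower had a median genomic span of 32.1 kb and a median of 11 exon blocks, those called higher 10.7 kb and 7, and those not called 15.2 kb and 7. Their median level was 39.6, 12.3 and 7.99 CPM in turn, so that level and length moved together with the call and their parts were not separated. Among the 982 genes raised 2-fold by carfilzomib alone, the share called higher in the presence of doxorubicin fell with span, from 24% of 229 genes under 5 kb to 21.4% of 313 from 5 to 20 kb, 16.7% of 264 from 20 to 50 kb and 10.2% of 176 over 50 kb. Over all tested genes the same share was 14.9, 12.4, 8.19 and 4.37%, so the order was not particular to the induced genes. Across the 982 genes, Pearson r between log10 span and the carfilzomib effect with doxorubicin was −0.287, and it was −0.243 across all 16648. Ubb, Hspa1b and Hspa8, which kept a called rise, span 2043 to 9104 bases, and Slc7a11, which did not, spans 551089. The short genes Hmox1 (6969 bases) and Srxn1 (5861 bases) did not keep a rise either. These single genes were picked from the named ones, and whether span plays a part was not tested.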

How the data were processed

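Polyadenylated RNA of 12 NIH/3T3 libraries was analysed. The counts are unnormalised reads per gene, in 1 table that the authors deposited with each gene's coordinates and exon length. The submitters' processing notes name GRCm39, STAR 2.7.9a, Subread 2.0.2 (featureCounts) and Trimmomatic 0.39. Strand setting and annotation release are not given in the sources used here. Reads of overlapping or antisense genes may therefore be shared. Groups and replicate numbers came from the sample titles.

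Symbols came from an older annotation of GRCm38, used for names only, and matched 52073 of 56980 IDs (91.4%). Promoter sequences are RefSeq's on GRCm38.p6, matched by symbol. All fits used edgeR 4.0.16 in R 4.3.3: filterByExpr (minimum count 10, minimum total count 15), TMM scaling, 1 mean per group over the 12 libraries, a robust quasi-likelihood F test, Benjamini-Hochberg adjustment over all 16648 genes and a prior count of 0.125 for log2 fold changes. SE is the absolute log2 contrast divided by the square root of F, and is approximate. The script was tested on simulated data. Mean ± SD is over 3 libraries. A count of 0 allows up to 3 counts, 0.0714 to 0.106 CPM of the plain library total, which covers counting error only.

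The members, the 30 gene lists and the alternatives were chosen with earlier results of these data known. Genes are named by rule: 23 chosen for these drugs, the 12 highest and 12 lowest contrasts among genes called alike under 5 scalings with a mean of at least 5 CPM and a proper symbol, and up to 4 called members of each list in its more frequent direction and 2 in the other. Not all of them are printed, some genes are not reported here, and those named after their values were seen are marked. Lists are described by counts, with no set test. Alternatives were 4 other scalings, DESeq2 1.42.0, limma-voom (limma 3.58.1), no filter or a mean of at least 1 CPM, an adjusted p under 0.01, the replicate number as a block, linear CPM, leaving out each library, and, added after the data were seen, leaving out DOX 3 and CFZ-DOX 3 together.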

Additional observations from a re-analysis of the deposited data

Results flagged for a closer look

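For 12 of the named genes, carfilzomib had called effects of opposite sign without and with doxorubicin, and the test of the difference is the interaction. Over all 16648 tested genes, 206 were called higher without and lower with doxorubicin, and 101 the reverse. Carfilzomib gave 14.4% higher and 14.4% lower calls without doxorubicin, and 10.3% and 12% with it. Whether opposite calls exceed what those shares alone would give was not tested. The value given first for each gene is the interaction (log2), followed by the carfilzomib effect without and with doxorubicin.

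The genes that rose without doxorubicin and fell with it were the antioxidant gene Srxn1 (−3.38, from 2.79 to −0.59), the p53 target Eda2r (−2.53, from 1.86 to −0.67), the proteasome genes Psma5 (−1.73, from 1.17 to −0.56) and Psme4 (−1.58, from 1.04 to −0.53), the autophagy adaptor gene Tollip (−1.45, from 0.82 to −0.63) and the stress sensor gene Atf6 (−1.20, from 0.71 to −0.49). The fall with doxorubicin was not called without DOX 2 for Psme4 (adjusted p = 0.0523), or without CFZ-DOX 2, CFZ-DOX 3, DOX 1 or DOX 2 for Atf6 (0.0502 to 0.0819).

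Those that fell without doxorubicin and rose with it were Id3 (3.18, from −1.98 to 1.20), Id1 (2.44, from −1.32 to 1.12), Ddah2 (2.57, from −1.23 to 1.34), the fibroblast marker S100a4 (2.23, from −1.47 to 0.76), the calponin gene Cnn1 (1.46, from −0.67 to 0.79) and the respiratory chain gene Cox7b (1.19, from −0.52 to 0.68). The rise of S100a4 was not called on leaving out any 1 library other than CFZ-DOX 3 or DOX 1 (adjusted p 0.0528 to 0.201). The fall of Cnn1 was not called without CFZ 1, CFZ 2, CFZ 3, DMSO 2 or DMSO 3 (0.0509 to 0.0845), nor that of Cox7b without any 1 of the 6 CFZ and DMSO libraries (0.0542 to 0.123). Under scaling to the ribosomal protein genes, none of these 6 rises was called with doxorubicin, and all 6 of the falls listed before them were. That scaling called 126 of all 16648 genes higher and 8784 lower with carfilzomib in the presence of doxorubicin.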

How the results depend on the processing

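Higher and lower interaction calls, 1408 and 1862, became 249 and 5199 under ribosomal scaling and 492 and 901 at an adjusted p under 0.01. Higher calls were 2195 under upper-quartile scaling and 2116 with DESeq2. Calls of at least 2-fold, 953 and 1038, became 191 and 3877 under ribosomal scaling and 424 and 687 at an adjusted p under 0.01, with 528 higher under library-size and 1489 under upper-quartile scaling. Leaving out 1 library gave 792 to 2172 higher and 1357 to 2726 lower calls. Without DOX 3 and CFZ-DOX 3 together there were 2619 and 3117, and 14 of 14 core proteasome, 20 of 21 cap, 23 of 28 heat shock, 18 of 27 NRF2 and 23 of 31 p53 genes were lower and 18 of 32 mitotic genes higher. Of genes changed 2-fold by carfilzomib alone, those called higher with doxorubicin too, 184, became 70 under library-size scaling, 32 under ribosomal scaling and 84 at an adjusted p under 0.01, and those called lower, 215, became 767 under ribosomal scaling and 105 at an adjusted p under 0.01. The cause of these shifts was not tested. Over the interactions of the 94 single genes, 2047 values under the alternatives kept direction and side of the threshold, 96 lost the call, 13 gained one and 6 changed sign.

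Among those 94 genes the sign changed for Hspa1b and Hspa1a, whose interactions were not called. They had −0.068 and −0.28 under ribosomal scaling and −0.21 and −0.42 without DOX 3 and CFZ-DOX 3 together. Leaving out 1 library gave −0.32 to 0.86 for Hspa1b and −0.69 to 0.73 for Hspa1a, the lowest without CFZ-DOX 3. With the replicate number as a block, 2356 were higher and 2675 lower, with 62 of 76 ribosomal protein genes (19 without the block) and 21 of 32 collagen and matrix genes (2 without it) higher. Same-numbered libraries deviated together with r of 0.019 to 0.654. Between DMSO and CFZ-DOX the r of number 3 (0.0799) was below the highest r with another number (0.1455). The same was seen for numbers 2 and 3 between CFZ and CFZ-DOX. For this reason the numbers were not taken as pairs in the main fit. In the other 4 pairs of groups every same-numbered r was at least 0.181. These include DMSO with CFZ and DOX with CFZ-DOX, the 2 comparisons whose difference is the interaction.

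CFZ-DOX 3 has the fewest counts, and genes near 0.106 CPM cannot be read there. Doxorubicin replicates differ more than the rest, which limits precision of every interaction.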

Other observations

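Sterol synthesis genes were called lower in 4 and higher in 1 of 28, immediate early genes higher in 4 and lower in 2 of 35, genes of the BCL2 family 1 in each direction of 13, splicing factors 1 in each direction of 28 and growth factor receptors 2 in each direction of 19, where 8.46% of all tested genes were called higher and 11.2% lower. Among the receptors, Axl had 934, 1100.0 and 941 CPM with DMSO, 426, 518 and 404 with CFZ, 1454, 1342 and 1067 with DOX and 1619, 1632 and 1050.5 with CFZ-DOX. It fell with carfilzomib alone, and CFZ-DOX overlapped DOX (log2 1.30, SE 0.28, adjusted p = 0.00556). Met, the receptor gene for hepatocyte growth factor, had 123 to 153 CPM with DMSO, 67.9 to 80.6 with CFZ, 57.9 to 70.2 with DOX and 18.9 to 21.3 with both, so that it fell with each drug and lay below the product of the falls (log2 −0.78, SE 0.19, adjusted p = 0.00975).

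Of 32 collagen and matrix genes 2 were called higher and 2 lower, fewer in each direction than the 8.46% and 11.2% of all tested genes. Their median contrast was nevertheless 0.76 (0.06 under ribosomal scaling), beside 0.04 over all tested genes. At an unadjusted p under 0.05, 8 were higher and 3 lower. Leaving out 1 library gave 0 to 10 called higher and 2 to 3 lower. With the replicate number as a block 21 were called higher and 2 lower. Timp3, an inhibitor of matrix metalloproteinases, had 818, 525 and 633 CPM with DMSO, 1675, 1317 and 1441 with CFZ, 811, 349 and 288 with DOX and 352, 218 and 168 with CFZ-DOX. CFZ was highest, and CFZ-DOX overlapped DOX and lay below every DMSO library (log2 −2.14, SE 0.49, adjusted p = 0.00825). Plod2, a collagen-modifying lysyl hydroxylase gene, rose with each drug to a like level, 159 to 192 CPM with CFZ and 166 to 173 with DOX, and with both drugs had 165 to 216, 48.6% of the product (log2 −1.04, SE 0.19, adjusted p = 0.00187). Among genes of the integrated stress response, Vldlr, a lipoprotein receptor gene, had no called effect of either drug alone and fell to 8.62, 6.40 and 4.72 CPM with both, from 18.9 to 22.8 with DMSO (log2 −1.56, SE 0.28, adjusted p = 0.00191). Wars1, the tryptophanyl-tRNA synthetase gene, had 225 to 247 CPM with CFZ and 76.1 to 128 with both drugs (log2 −1.05, SE 0.28, adjusted p = 0.0178).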
